A study of Bos indicus x Bos taurus with 17 samples.

Results

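Transcripts of 43 cell cycle genes were followed through the liver and the skeletal muscle of bovine fetuses at about day 105 of gestation. The genes were chosen by symbol, as known actors of the successive cell cycle phases, and all 43 were among the 21048 genes counted in both tissues. They fall into 6 groups: 5 D-type cyclins and G1 kinases, 5 genes of the G1 to S step, 12 genes of origin licensing and DNA synthesis, 7 genes of S phase, G2 and mitotic entry, 12 mitotic genes and 2 inhibitors of cyclin-dependent kinases (CDKs). Of these 43 genes, 43 passed the filter on low counts in every comparison.

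The study examined fragments of tRNA in fetuses with large offspring syndrome, an overgrowth syndrome, and compared groups by method of conception and by the syndrome. The RNA-seq libraries used here came from 6 fetuses in 2 groups, and the syndrome group was not among their labels. The Control-AI group held 2 fetuses, numbered 2 and 4, conceived by artificial insemination. The ART-Normal group held 4 fetuses, numbered 1 to 4, conceived by assisted reproductive technology (ART), which for this study meant embryos produced in vitro. All 6 were F1 crosses of Bos indicus and Bos taurus, labelled healthy, and each gave a liver and a muscle library. ART-Normal 4 carries the ART label, but its body weight is not among those the study lists, so its place in the normal weight class rests on the label of its conception alone. The libraries were made from whole tissue. Fewer cycling cells and less of a transcript in each cell cannot be told apart in such data.

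Cells divide by passing a series of switches, each run by a CDK and its cyclin partner. D-type cyclins with CDK4 or CDK6 respond to growth signals in G1, cyclin E with CDK2 and the E2F transcription factors open S phase, and cyclins A and B with CDK1 carry the cell into mitosis. Inhibitors such as p21 (CDKN1A) and p27 (CDKN1B) hold these kinases in check. Fetal liver in mid gestation is a blood-forming organ in which erythroid precursors and hepatoblasts divide, whereas fetal skeletal muscle holds myoblasts that leave the cycle as they fuse into fibres.

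Levels are given as CPM, the count of a gene relative to the total of its library, corrected by the trimmed mean of M values (TMM) over the 12 libraries, which held 12433300 to 43339598 counts each. The TMM factor was 0.76 in the liver of Control-AI 2 and 0.963 to 1.09 in the other libraries. A low factor raises every CPM of its library. The labelled tissues carried their markers. The summed CPM of 12 hepatocyte genes was 41144 to 362773 in liver and 26.5 to 397 in muscle, while that of 12 muscle fibre genes was 24678 to 35319 in muscle and 4.61 to 52.2 in liver. One fetus stood apart in both tissues. Control-AI 2 lay at -49.3 on the first principal component of liver and at -48.6 on that of muscle, whereas the other fetuses lay at 3.75 or above and at 6.35 or above. Its liver held the highest hepatocyte sum, against 41144 to 74474 in the other 5, and an erythroid sum of 27683, against 9521 to 11020. A fetal globin gene, HBG, made up most of that sum, with 20099 CPM against 1111 to 2396 in the other livers. The median log2 deviation of the 15 erythroid genes from their mean over the 6 livers was -0.09 in Control-AI 2 and -0.07 to 0.13 in the others. For the 12 hepatocyte genes this median was 0.53 in Control-AI 2 and -0.72 to 0.05 in the others, a smaller gap than that of the sums. Results that rest on this fetus are given with and without it.

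Most of the cell cycle genes were more abundant in liver than in muscle. Over the 6 fetuses, 38 of the 43 were higher in liver, 3 were lower and 2 did not pass the test (edgeR quasi-likelihood test, adjusted p at most 0.05), whereas 40.6% of the 12923 genes tested were higher and 40.7% were lower. The difference was at least 2-fold for 35 of the 38 higher genes and 2 of the 3 lower ones, with 22.6% and 24.3% of all genes past that bound. The median log2 fold change of the 43 genes was 1.79, or 3.45-fold, and that of all genes tested was 0.01. In 37 genes every liver library exceeded every muscle library, a pattern held by 31.6% of all genes, and in 2 genes the order was the opposite, as for 32.9% of all genes. Without Control-AI 2 the counts were again 38 higher and 3 lower.

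**Figure D1:**
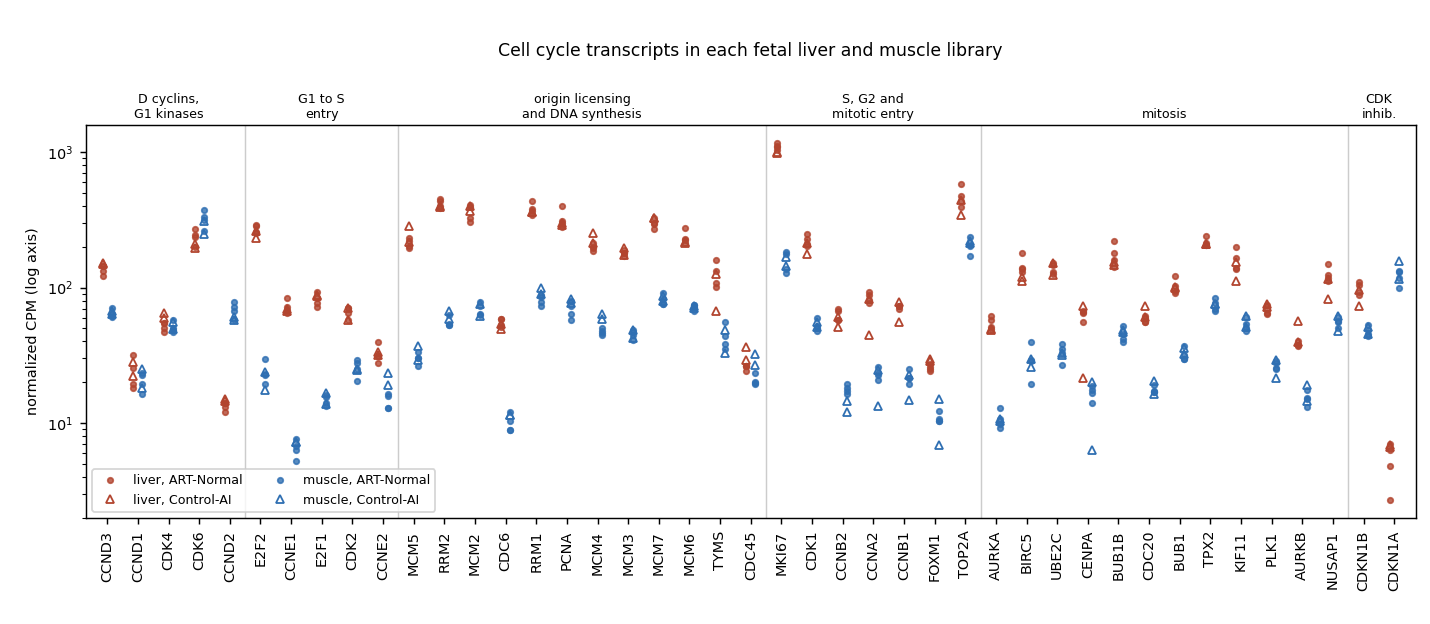
Normalized CPM on a log axis of each of the 43 genes in the 6 liver and 6 muscle libraries, 1 point per library, with filled circles for ART-Normal and open triangles for Control-AI. Liver and muscle points do not overlap for 39 genes, and the 4 that overlap are CCND1, CDK4, CDK6 and CDC45.

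The preference for liver was present in each animal. The median log2 ratio of liver over muscle across the 43 genes ranged from 1.68 in Control-AI 2 to 1.81 in ART-Normal 1, and 39 genes were higher in liver in each of 5 fetuses and 40 in Control-AI 2. Markers of several cell types moved with the tissue as well. Of 15 erythroid genes, 13 were higher in liver with a median log2 fold change of 7.84 over the list, and their summed CPM was 9521 to 27683 in liver, highest in Control-AI 2, and 151 to 711 in muscle. The 7 macrophage genes summed to 482 to 660 CPM in liver and 105 to 142 in muscle, and the 7 connective tissue genes to 840 to 1460 in liver and 23011 to 30429 in muscle. No marker of the 15 erythroid or 12 hepatocyte genes was at 0 in all muscle libraries. The part of these cell types in the higher cell cycle transcripts of liver was not tested.

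The genes of the G1 to S step held the highest median of the 6 groups. All 5 were higher in liver, with a median log2 fold change of 2.49 and values from 0.99 to 3.55. E2F2, a transcription factor that activates S phase genes and that lies on chromosome 2 at 129321615 to 129344383 of the ARS-UCD1.2 build, had 233 CPM in the lowest liver library, a median of 259 and 287 in the highest. In muscle it ranged from 17.5 to 29.4 CPM around a median of 22.8. No library of either tissue came near the other range, and the log2 fold change was 3.55 ± 0.12 (SE), or 11.7-fold (edgeR adjusted p = 2.83e-12).

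CCNE1, cyclin E1, which activates CDK2 at the G1 to S boundary, had 65.1 CPM in the lowest liver library, a median of 68.8 and 84.3 in the highest. In muscle it stayed between 5.29 and 7.63 CPM, with a median of 7.05, so the tissues differed 10.5-fold (log2 fold change 3.40 ± 0.11 SE, edgeR adjusted p = 2.53e-12). The second cyclin E gene, CCNE2, had a much smaller difference, 1.99-fold, from a mean of 32.5 ± 4.00 CPM (SD, n = 6) in liver to 16.7 ± 3.95 CPM in muscle. E2F1 was 5.61-fold higher in liver, with 71.3 to 92.0 CPM there and 13.2 to 16.7 CPM in muscle. CDK2, the kinase partner of cyclin E, was 2.60-fold higher, with 57.1 to 71.1 CPM in liver and 20.3 to 28.9 CPM in muscle.

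Every one of the 12 genes of origin licensing and DNA synthesis was higher in liver, with a median log2 fold change of 2.08. MCM2 to MCM7 encode the hexamer that unwinds DNA at the replication fork, and all 6 were at least 3.20-fold higher in liver. MCM5 led them at 7.30-fold, with a liver range of 194 to 287 CPM around a median of 218 and a muscle range of 26.3 to 36.9 CPM around a median of 30.04 (log2 fold change 2.87 ± 0.10 SE, edgeR adjusted p = 6.86e-12). MCM2 differed 5.34-fold, from 303 to 407 CPM in liver and 61.3 to 78.5 CPM in muscle.

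RRM2, the regulated subunit of ribonucleotide reductase that makes deoxynucleotides, had 387 CPM in the lowest liver library, a median of 399 and 450 in the highest. Its muscle values were 53.0 to 66.9 CPM with a median of 56.4. The ranges lay far apart, and the log2 fold change was 2.83 ± 0.09 (SE), or 7.13-fold (edgeR adjusted p = 2.23e-12). Its partner RRM1 differed 4.37-fold. CDC6, which loads the MCM complex onto origins, had 49.8 to 59.0 CPM in liver and 8.85 to 12.1 CPM in muscle, a 5.18-fold difference.

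CDC45, which joins the MCM complex to form the active helicase, differed least in this group and was named after its values were seen. Its liver values were 24.3 to 36.4 CPM with a median of 26.4, and its muscle values were 19.5 to 32.4 CPM with a median of 21.7. The tissues overlapped, and the log2 fold change of 0.28 ± 0.10 (SE) had an edgeR adjusted p of 0.0158. That call was lost with library size as the scale (0.13) or upper quartile scaling (0.23), and without ART-Normal 2 (0.25) or ART-Normal 3 (0.23). CDC45 overlaps UFD1 on the opposite strand by 732 bp. How strand was used in counting is not stated, so it is not known how reads of that stretch were assigned. CCNE2, TYMS, PLK1 and NUSAP1 also overlap genes of the opposite strand, by 79, 196, 53 and 9435 bp, the last with NDUFAF1.

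**Figure D2:**
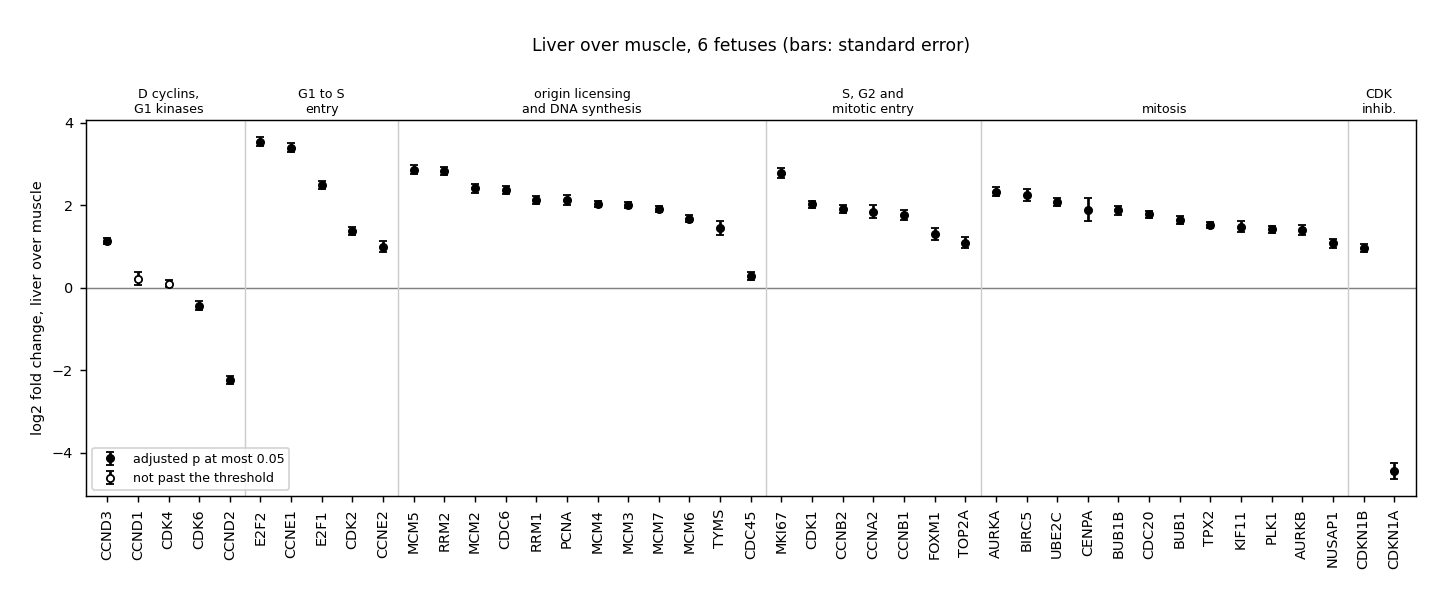
Log2 fold change of liver over muscle for the 43 genes, grouped by phase, from 12 libraries of 6 fetuses, with bars for the standard error. Filled points passed the test and the 2 open points, CDK4 and CCND1, did not, and all genes of the 4 phase groups from the G1 to S step to mitosis lay above 0.

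The 7 genes of S phase, G2 and mitotic entry were all higher in liver, with a median log2 fold change of 1.84. MKI67, which encodes the proliferation marker Ki-67 and spans 30108 bp of chromosome 26 at 47507658 to 47537765, had 984 CPM in the lowest liver library, a median of 1065 and 1172 in the highest. In muscle its lowest value was 127 CPM, its median 156 and its highest 182. Each liver library held more than each muscle library, and the difference was 6.90-fold (log2 fold change 2.79 ± 0.12 SE, edgeR adjusted p = 4.31e-11).

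CDK1, the mitotic kinase, had 178 to 249 CPM in liver and 47.8 to 59.3 CPM in muscle, a 4.07-fold difference. Its cyclin partners differed by similar amounts: CCNB2 by 3.78-fold, from 50.9 to 69.9 CPM in liver and 12.02 to 19.3 CPM in muscle, and CCNA2 by 3.58-fold, from 44.9 to 92.1 CPM in liver and 13.4 to 25.9 CPM in muscle. TOP2A, a topoisomerase that untangles replicated DNA, had the smallest difference of this group at 2.14-fold.

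All 12 mitotic genes were higher in liver and all by at least 2-fold, with log2 fold changes of up to 2.33 and a median of 1.72. AURKA, a kinase of the spindle poles, had 48.9 to 61.9 CPM in liver with a median of 50.4 and 9.19 to 12.96 CPM in muscle with a median of 10.5. The ranges were well separated, and the fold difference was 5.03 (log2 fold change 2.33 ± 0.10 SE, edgeR adjusted p = 5.59e-11). BIRC5 (survivin), a member of the chromosomal passenger complex, was 4.75-fold higher, with 112 to 179 CPM in liver and 19.4 to 39.7 CPM in muscle. UBE2C, which works with the anaphase-promoting complex, was 4.23-fold higher, with 123 to 153 CPM in liver and 26.7 to 38.4 CPM in muscle.

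CENPA, the histone variant that marks centromeres, was 3.72-fold higher in liver but with the largest standard error of the 38 higher genes, 0.28 on the log2 scale. Its liver values were 21.4 CPM in Control-AI 2 and 55.4 to 72.6 CPM in the other 5 fetuses. In muscle it had 6.34 CPM in Control-AI 2 and 14.0 to 20.2 CPM in the others. Both tissues of the same animal were thus low, so that its difference between the tissues was little affected and was 1.90 on the log2 scale without that fetus.

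Within the groups the fold differences spread widely, from 1.99-fold to 11.7-fold at the G1 to S step and from 1.21-fold to 7.30-fold in DNA synthesis.

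The D-type cyclins and their kinases departed from this pattern, with 1 gene higher in liver, 2 lower and 2 that did not pass the test. CCND3, cyclin D3, was the higher one, with 121 to 151 CPM in liver around a median of 145 and 60.5 to 70.6 CPM in muscle around a median of 63.5. The log2 fold change was 1.13 ± 0.07 (SE), or 2.19-fold (edgeR adjusted p = 3.25e-09). CCND2, cyclin D2, on chromosome 5 at 105763348 to 105786545, went the other way. Its liver values were 12.1 to 14.96 CPM with a median of 14.1, and its muscle values were 57.3 to 77.7 CPM with a median of 63.7. Muscle exceeded liver in every library, and the log2 fold change was -2.23 ± 0.10 (SE), which is 4.69-fold lower in liver (edgeR adjusted p = 5.11e-11).

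CDK6 was also lower in liver, by a smaller amount. It had 195 to 273 CPM in liver with a median of 222 and 249 to 375 CPM in muscle with a median of 311. The ranges overlapped, and the log2 fold change was -0.43 ± 0.11 (SE), or 1.35-fold lower in liver (edgeR adjusted p = 0.00203). Within a fetus, muscle exceeded liver in each of the 6 animals.

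CDK4, the other D cyclin kinase, had 46.9 to 64.4 CPM in liver with a median of 54.7 and 46.9 to 57.1 CPM in muscle with a median of 50.2. The log2 fold change was 0.10 ± 0.08 (SE, edgeR adjusted p = 0.250), so a difference between the tissues was not detected. CCND1, cyclin D1, had 18.1 to 31.8 CPM in liver with a median of 23.8 and 16.4 to 25.0 CPM in muscle with a median of 21.0. Its log2 fold change was 0.23 ± 0.15 (SE, edgeR adjusted p = 0.189). CCND1 lies whole, over 9462 bp, within ORAOV1 on the opposite strand. ORAOV1 had a mean of 35.5 CPM in liver and 31.0 CPM in muscle, raised by Control-AI 2 with 111 and 86.1 CPM. CCND1 held 246 to 1433 counts per library. Without the strand setting, it is not known how reads of the overlap were assigned to these genes, and this was not tested.

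**Figure D3:**
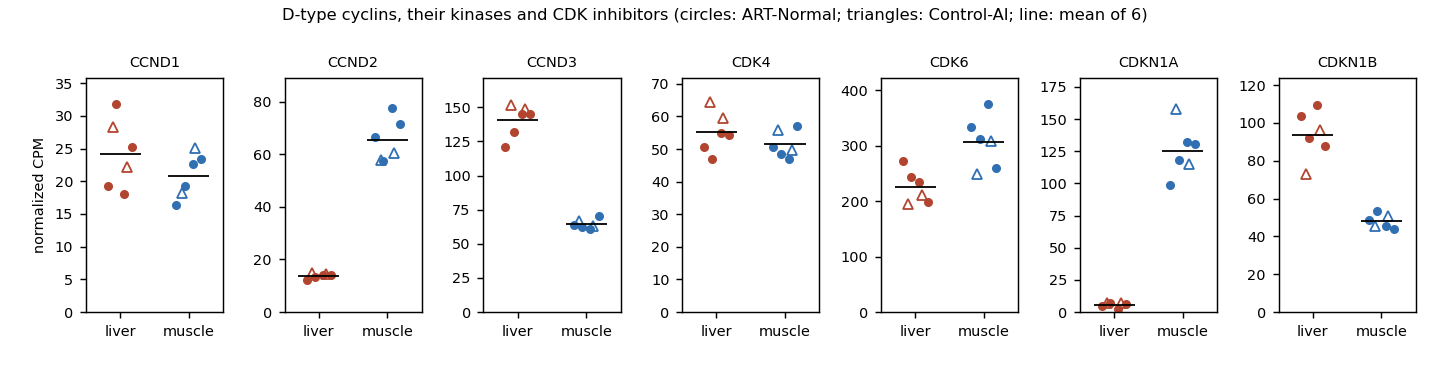
Normalized CPM of the D-type cyclins, their kinases and the 2 CDK inhibitors in 6 liver and 6 muscle libraries, with circles for ART-Normal, triangles for Control-AI and a line at the mean of 6. CCND3 and CDKN1B are higher in liver, CCND2 and CDKN1A are higher in muscle, and the tissues overlap for CCND1, CDK4 and CDK6.

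The CDK inhibitors divided between the tissues. CDKN1A, which encodes p21 and lies on chromosome 23 at 10573389 to 10590591, had 2.70 CPM in the lowest liver library, a median of 6.47 and 7.03 in the highest. In muscle its lowest value was 98.7 CPM, its median 124 and its highest 158. This was the largest difference of all 43 genes in either direction, at 21.7-fold lower in liver (log2 fold change -4.44 ± 0.20 SE, edgeR adjusted p = 6.52e-11). CDKN1B, which encodes p27, went the opposite way, with 72.7 to 109 CPM in liver around a median of 94.2 and 44.1 to 53.2 CPM in muscle around a median of 47.1. Its log2 fold change was 0.97 ± 0.10 (SE), or 1.96-fold (edgeR adjusted p = 4.03e-07).

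A wider list of 97 other cell cycle genes was set beside the 43. Of the 95 that could be tested, 79 were higher in liver, 9 were lower and 7 did not pass, with a median log2 fold change of 1.33. Of all genes tested, 40.6% were higher and 40.7% lower. CDKN2A and CDKN2B were too low to test. All 38 other G2 and mitotic genes were higher in liver, led by CCNF (cyclin F) at 2.50 ± 0.13 (log2, SE) and the condensin subunit SMC2 at 2.27 ± 0.13. Of 27 other replication genes 23 were higher and 1 was lower, with the largest values in TK1 (thymidine kinase) at 4.06 ± 0.11 and ORC1, of the origin recognition complex, at 3.31 ± 0.11.

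The other G1 and S entry regulators were more divided than these lists, with 9 of 17 higher in liver and 6 lower. Their shares lay nearer to those of all genes, 40.6% higher and 40.7% lower. CCNG2, an atypical cyclin tied to cell cycle arrest, fell by 3.38 ± 0.15 on the log2 scale, and E2F8, a repressor that E2F activators switch on, was higher by 2.45 ± 0.10. Among 13 other CDK inhibitors and checkpoint genes, 9 were higher and 2 lower. CDKN2D, which encodes the CDK4 and CDK6 inhibitor p19, was higher in liver by 3.12 ± 0.10 and GADD45A, a stress response gene, by 3.08 ± 0.12. The 2 lower genes were the growth arrest gene GADD45G and CDKN1C, which encodes p57, at -2.07 and -0.47.

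Method of conception was compared within each tissue, 4 ART-Normal against 2 Control-AI fetuses. In liver none of the 43 genes passed the test, as was true of all 11304 genes tested (edgeR quasi-likelihood test, 0% called in either direction). The likelihood ratio test and DESeq2 also called 0 of the 43. At an unadjusted p under 0.05, 1 of the 43 genes passed, CDC45, beside 8.39% of all genes. The median log2 fold change of the 43 was 0.06, with a range from -0.37 to 0.41, and the median standard error was 0.15. Differences well above that standard error were not called. CDC45, at -0.36 ± 0.15 (SE), had an edgeR adjusted p of 0.584. Every ART-Normal liver exceeded both controls for 2 genes, MKI67 and BIRC5, and lay below both for 6, CCND2, CCND3, CDK4, MCM4, CDC45 and FOXM1. Among all genes 9.84% and 8.7% were so separated.

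For MKI67, the livers of ART-Normal 1 to 4 gave 1116, 1090.5, 1039.8 and 1172 CPM, and those of the controls gave 984 (Control-AI 2) and 1003 (Control-AI 4). The groups did not overlap, yet the log2 fold change was 0.14 ± 0.16 (SE, edgeR adjusted p = 0.757). The 3 largest positive values were those of CENPA (0.41 ± 0.36), CCNA2 (0.39 ± 0.21) and TYMS (0.35 ± 0.25), the last being thymidylate synthase. All rested on Control-AI 2, and without it they were -0.19, 0.037 and -0.014. The 3 most negative were CDKN1A (-0.37 ± 0.34), CDC45 (-0.36 ± 0.15) and AURKB (-0.35 ± 0.16), a kinase of the chromosomal passenger complex. Without Control-AI 2 these values were -0.37, -0.17 and -0.05. That of CDKN1A ranged from -0.56 without ART-Normal 2 to -0.16 without ART-Normal 3, the liver at 2.70 CPM. CDKN1A met the minimum of 5 CPM, taken before TMM scaling, through the control livers alone. Control-AI 2 passed it narrowly, with 93 of 18454088 counts. After TMM scaling the control livers had 6.63 and 6.85 CPM. The ART-Normal livers lay near that minimum, with a median of 5.58 CPM. Its rank as the most negative value carries this limit. MCM4 was separated by a narrow gap, with 212.3 CPM in the highest ART-Normal liver and 212.4 CPM in the lower control, the fetus Control-AI 4. Its log2 fold change was -0.24, or -0.09 without Control-AI 2.

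In muscle none of the 43 genes passed the test either, and 1 of the 11695 genes tested was called, lower in ART-Normal (0.00855%), with 0% higher. The likelihood ratio test and DESeq2 again called 0 of the 43. At an unadjusted p under 0.05, 4 of the 43 passed, CCNE2, CDC45, MCM4 and CCNB2, beside 9.19% of all genes. The median log2 fold change of the 43 was -0.05. The groups were separated for 1 higher gene, CCNB2, and 4 lower ones, CCNE2, MCM4, CDC45 and RRM1, where 9.12% and 6.37% of all genes were.

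Of the 12 genes of origin licensing and DNA synthesis, 11 had a log2 fold change below 0 in muscle, with a median of -0.18. Of all genes tested 49.9% were below 0, with a median of 0.00. Without Control-AI 2, 7 of the 12 were below 0, with a median of -0.16. In the wider list of other replication genes 15 of 26 were below 0, with a median of -0.03. Without Control-AI 2 the wider list had 18 of 26 below 0, with a median of -0.13. In liver 6 of the 12 were below 0. The 7 connective tissue genes were all below 0 in the same muscle comparison, with a median of -0.25 and an unadjusted p of 0.00815 for LUM (lumican) and 0.0134 for POSTN (periostin) in edgeR's test, adjusted p 0.372 and 0.396. All 7 macrophage genes (median -0.06) and 3 of 3 hepatocyte genes (median -2.98) were below 0 there as well. Of the muscle fibre genes 6 of 12 were below 0, and of the erythroid genes 0 of 5. Without Control-AI 2 the medians were -0.31 for connective tissue, -0.31 for macrophage and -0.03 for hepatocyte genes. The part of these cell types in the values of the replication genes was not tested.

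CCNE2 had the lowest value in muscle. The ART-Normal fetuses 1 to 4 gave 16.5, 15.9, 12.99 and 12.8 CPM, and the Control-AI fetuses 2 and 4 gave 23.2 and 19.1 CPM. Both controls lay above every ART-Normal fetus, and the log2 fold change was -0.56 ± 0.18 (SE, edgeR adjusted p = 0.389), or -0.40 without Control-AI 2. For CDC45 the ART-Normal fetuses gave 20.1, 19.6, 19.5 and 23.2 CPM and the controls 32.4 and 26.7 CPM, with a log2 fold change of -0.54 ± 0.16 (edgeR adjusted p = 0.356), or -0.38 without Control-AI 2. The values of MCM4 were 50.6, 44.9, 47.9 and 46.3 CPM in the former and 63.3 and 58.3 CPM in the latter, with -0.38 ± 0.13 (edgeR adjusted p = 0.411), or -0.31 without Control-AI 2. CDC45 and MCM4 were separated in the same direction in liver, where they had -0.36 and -0.24, or -0.17 and -0.09 without Control-AI 2. The controls of both tissues come from the same 2 fetuses.

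The largest positive values in muscle were those of CCNB2 (0.39 ± 0.17), CENPA (0.31 ± 0.34) and CCNA2 (0.27 ± 0.22). Without Control-AI 2 the first was 0.27, and the others were -0.28 and -0.089. In muscle MKI67 stood at 136, 127, 182 and 176 CPM in the ART-Normal fetuses and at 168 and 144 CPM in the controls, which lay inside the ART-Normal range. Its log2 fold change was -0.03 ± 0.17 (SE, edgeR adjusted p = 0.976).

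**Figure D4:**
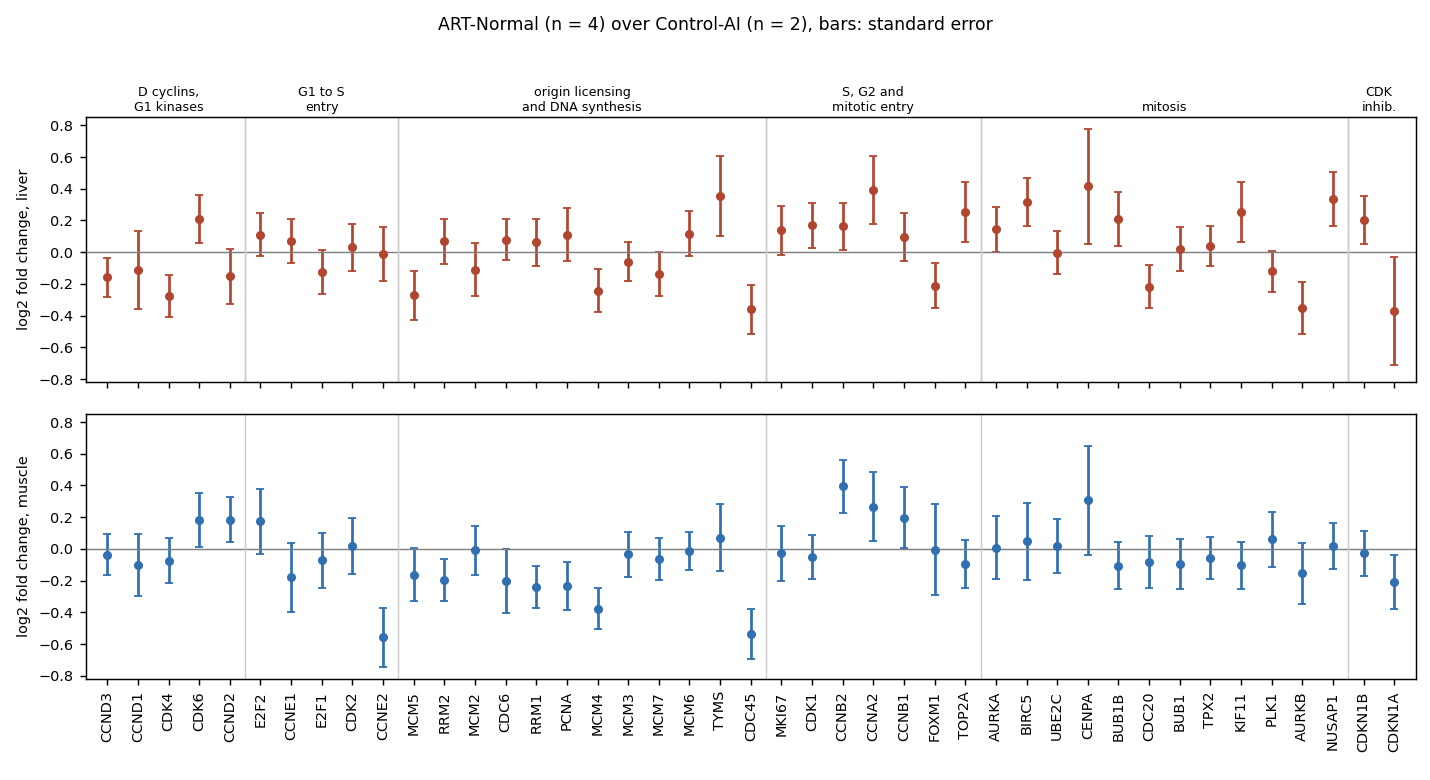
Difference between the conception groups for the 43 genes as log2 fold change, with 4 ART-Normal fetuses set over 2 Control-AI fetuses, liver above and muscle below, with bars for the standard error. None passed the test, all values lie between -0.56 and 0.41, and the widest bars in muscle and liver include that of CENPA.

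None of the 43 genes differed between the tissues in its ART-Normal over Control-AI value in the test of the interaction, as for all 12923 genes tested (edgeR, 0% called), and the likelihood ratio test and DESeq2 called 0 of the 43 as well. An unadjusted p under 0.05 was reached by 5.5% of all genes and by CCNE2 alone among the 43. CCNE2 had an interaction of 0.56 ± 0.25 on the log2 scale (edgeR adjusted p = 0.894), from -0.01 in liver and -0.56 in muscle, and RRM1 came next at 0.32 ± 0.19 (edgeR adjusted p = 0.932). Among the 97 other cell cycle genes, none of the 94 tested in liver and none of the 92 tested in muscle was called, with medians of 0.07 and -0.05.

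The spread between fetuses was small for most of the 43 genes. The median SD of log2 CPM over 6 fetuses was 0.16 in liver and 0.17 in muscle, against 0.22 and 0.20 for all genes tested, whose levels also differ. The widest spread in both tissues included CENPA, with an SD of 0.66 in liver, which was 0.14 without Control-AI 2. ART-Normal 1 had the highest value of the 6 fetuses for 19 of the 43 genes in liver and 11 in muscle, and the lowest for 5 and 3. Of all 12923 genes tested, it was highest for 3328 in liver and 1609 in muscle, and lowest for 3288 and 1470. Control-AI 2 had the lowest value for 17 of the 43 in liver and 7 in muscle, and the highest for 10 and 12. Of the 12923 genes, it was lowest for 3409 in liver and 3670 in muscle, and highest for 3219 and 2909. The lowest value lay with ART-Normal 2 for 12 of the 43 genes in liver and 10 in muscle, and with ART-Normal 3 for 3 and 11. Over the 12923 genes the same counts were 1487 and 1960 for ART-Normal 2, and 1430 and 2058 for ART-Normal 3.

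Control-AI 2 was followed gene by gene, and the genes that follow were named after their values were seen. Its median log2 deviation from the other 5 fetuses over the 43 genes was -0.07 in liver and 0.10 in muscle. For 7 genes it held the lowest level of the 6 fetuses in liver and in muscle: CENPA, CCNA2, TYMS, CCNB1, CCNB2, NUSAP1 and CDK6. For another 7 it held the highest level in both: MCM3, MCM4, MCM5, CDC45, AURKB, PLK1 and CDC20. Each count is 16.3% of the 43, whereas Control-AI 2 was lowest in both tissues for 14.4% of the 12923 genes tested in both and highest in both for 12.1%, so the shares lay near those of all genes. Both sets mixed cell cycle phases. The low set held the DNA synthesis gene TYMS and the G1 kinase CDK6 beside cyclins A2, B1 and B2. The high set held the mitotic genes AURKB, PLK1 and CDC20 beside 3 MCM genes and CDC45. Its place in liver depended on the TMM scaling. On library totals alone, AURKB stayed highest in Control-AI 2, and the rest of the high set did not. MCM5, for example, had 4025 of 18454088 counts in Control-AI 2 and 6842 of 29086472 in ART-Normal 4.

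CCNA2 shows the low side. In liver it had 44.9 CPM in Control-AI 2 and 77.1 to 92.1 CPM in the other 5, and in muscle it had 13.4 CPM and 20.9 to 25.9 CPM. TYMS had 66.8 CPM against 102 to 158 CPM in liver and 32.9 CPM against 35.3 to 55.8 CPM in muscle. Control-AI 2 lay outside the range of the others in each case, most clearly for CENPA, where its level was 2.99-fold lower in liver and 2.61-fold lower in muscle than the mean of the other 5 on the log2 scale. On the high side, AURKB had 56.8 CPM against 37.1 to 40.4 CPM in liver and 19.0 CPM against 13.1 to 17.5 CPM in muscle, and MCM5 had 287 CPM against 194 to 231 CPM and 36.9 CPM against 26.3 to 33.2 CPM.

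Across the 43 genes, the deviation of Control-AI 2 from the other fetuses in liver and that in muscle had a Pearson r of 0.82, and of 0.66 without CENPA and CCNA2, while over all 12923 genes it was 0.55. Its sign was the same in both tissues for 27 of the 43 genes, or 62.8%, and for 69.3% of all genes. The same r was 0.69 in ART-Normal 1 and 0.78 in ART-Normal 4, and it was 0.11, -0.15 and 0.08 in ART-Normal 2, ART-Normal 3 and Control-AI 4. Over all genes the r was 0.34 in ART-Normal 1 and 0.37 in ART-Normal 4. It was 0.22, 0.15 and 0.15 in ART-Normal 2, ART-Normal 3 and Control-AI 4. The sign was shared for 35 of the 43 genes (81.4%) in ART-Normal 1 and 34 (79.1%) in ART-Normal 4, and for 66.8% and 70.1% of all genes. These values describe genes within 1 animal, and genes are not independent replicates. Hepatocyte genes were also high in the muscle of Control-AI 2, with a sum of 397 CPM against 26.5 to 68.2, and muscle fibre genes were high in its liver, with 52.2 CPM against 4.61 to 7.42. The part of these signals in its cell cycle transcripts was not tested.

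**Figure D5:**
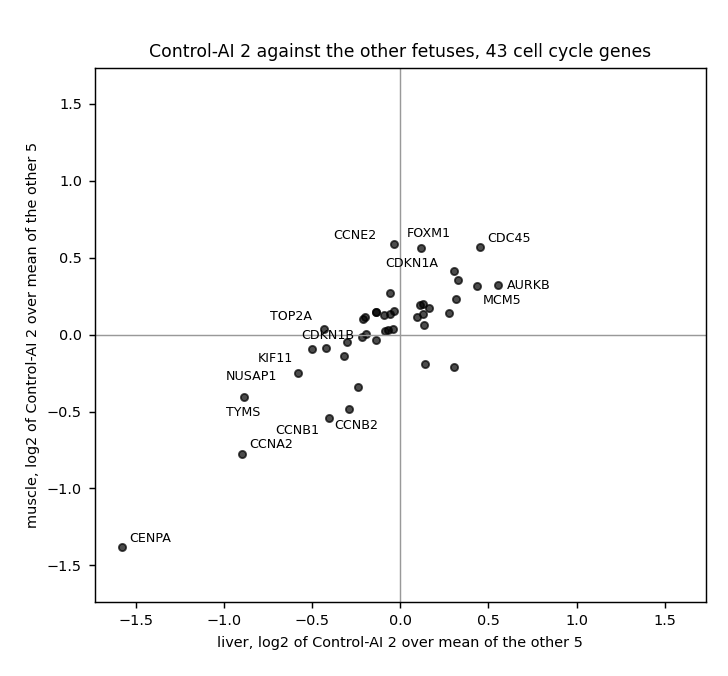
For each of the 43 genes, the log2 ratio of the level in Control-AI 2 to the average of the 5 other fetuses in liver (horizontal axis) and in muscle (vertical axis), with names for genes beyond 0.4 in either tissue. CENPA, CCNA2 and TYMS lie low in both tissues, and CDC45, AURKB and MCM5 lie high in both.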

How the data were processed

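RNA-seq counts of liver and skeletal muscle from 4 ART-Normal and 2 Control-AI fetuses were analysed. The files that the authors deposited hold raw counts, not normalized, for each gene on ARS-UCD1.2, and all 21048 listed lengths equal the span from gene start to gene end, introns included. Per the labels, the libraries were poly(A) selected and strand-specific and were read in pairs of 150 bp. The submitters' processing notes name FastQC 0.11.7, HISAT2 2.1.0, SAMtools, Cufflinks, featureCounts and edgeR 3.24.3 without their roles, and the strand setting is not given in the sources used here. Of 13 count columns per table, 6 matched samples and 7 were not used. Kidney was not analysed here. Tables of the authors' own comparisons hold log2 fold changes, log2 CPM, likelihood ratios, p-values and FDR, and were not used. Gene identifiers listed on 2 lines numbered 9, none among the 43 genes.

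The counts were tested with edgeR 4.0.16 in R 4.3.3 (quasi-likelihood test, two-sided, TMM, Benjamini-Hochberg adjustment over all genes tested, threshold 0.05). Genes needed a minimum of 5 CPM, before TMM scaling, in every library of any group. Conception was compared within each tissue without covariates, and the tissues over 12 libraries with conception as covariate. An interaction term tested whether the effect of conception differed between the tissues. Standard errors were the log2 fold change divided by the root of F. Deviations and ratios used CPM plus 0.5, and principal components log2 CPM with a prior of 1. The procedures were tested on simulated data, drawn separately for each library and thus without any tie between the tissues of a fetus. Each fetus gave both tissues, matched by fetal identifier, but the main fits held no term for the fetus. A block on the fetus was an alternative. With it, the SE of CENPA between the tissues was 0.08 instead of 0.28. The edgeR adjusted p of CDC45 was 0.00729 instead of 0.0158. Between the tissues of a fetus, departures from the group mean correlated over all genes at 0.30, 0.06, 0.09 and 0.43 in ART-Normal 1 to 4. In the controls, which mirror each other, they correlated at 0.51. Alternatives were other scalings, DESeq2 1.42.0 (Wald test) and edgeR's likelihood ratio test, no filter, ART-Normal 1 to 3, each conception group alone, replicate blocks and leaving out each fetus. Python 3.11.15, pandas 2.3.3 and Matplotlib 3.10.9 made tables and plots.

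The 43 genes, the gene lists and the markers were chosen with earlier results of these data known. Genes named in the tissue comparison are, per group, the 4 with the largest absolute log2 fold change among those past the threshold, all that were lower in liver and all that did not pass. In the conception comparisons they are those past the threshold or else the 3 largest and 3 most negative with MKI67, in the interaction the 2 with the smallest p, and per wider list the 2 with the largest absolute change past the threshold. Others named, such as CCNE2, RRM1, TOP2A and CDC45 between the tissues, MCM4 between the conception groups, and GADD45G and CDKN1C, were chosen after their values were seen. In the marker lists, PAX7 and GP1BB were not matched, so 3 of 4 myogenic progenitor genes and 4 of 5 megakaryocyte genes remained. Of the lists not described with the results, 2 of 2 tested myogenic progenitor genes and 5 of 6 endothelial genes were lower in liver, and 4 of 4 megakaryocyte genes were higher.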

Additional observations from a re-analysis of the deposited data

Results flagged for a closer look

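Among 86 groups of 4 ART-Normal libraries (43 genes in 2 tissues), 4 held 1 library whose gap to the nearest other passed Dixon's critical value for groups of 4, and chance gives about 1 in 20. In liver, ART-Normal 1 was low for CDC45, at 24.3 CPM against 26.2 to 26.6 in the other 3, and ART-Normal 3 was low for CCNB1, at 69.3 CPM against 72.7 to 73.3. In muscle, ART-Normal 4 was high for CDC45, at 23.2 CPM against 19.5 to 20.1, and ART-Normal 1 was high for RRM2, at 63.0 CPM against 53.0 to 53.7.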

How the results depend on the processing

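Counts below are of all genes tested, higher then lower. For ART-Normal over Control-AI in liver they were 1 and 5 with library size as the scale, 24 and 65 with the likelihood ratio test and 25 and 31 with DESeq2, and 2 were higher with ART-Normal 1 to 3. In muscle they were 51 and 69 with the likelihood ratio test and 64 and 42 with DESeq2, and 0 were lower with ART-Normal 1 to 3. For the interaction they were 43 and 55 with the likelihood ratio test and 12 and 25 with DESeq2. None of the 43 genes was called under these settings. Leaving out each fetus gave 0 to 348 higher and 0 to 482 lower in liver, 0 to 674 and 0 to 653 in muscle, and 0 to 118 and 0 to 114 for the interaction. The highest counts came without Control-AI 4, where Control-AI 2 is the lone control, assumed to vary as the ART-Normal fetuses do.

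Over the same omissions, 0 to 2 of the 43 genes were called higher and 0 lower in liver, and 0 to 2 higher and 0 to 1 lower in muscle. Those called without Control-AI 4 were CENPA (1.54) and CCNA2 (0.89) in liver, and CENPA (1.38), CCNA2 (0.76) and CDC45 (-0.68) in muscle. Without Control-AI 2 the sign turned for TYMS (-0.014, range -0.014 to 0.88) and CENPA (-0.19) in liver and for CCNA2 (-0.089), CENPA (-0.28) and MKI67 (0.10, range -0.14 to 0.10) in muscle, and MKI67 in muscle also turned without ART-Normal 1 (0.01) or 2 (0.05). The cause was not tested. Library size as the scale moved the median of all genes to 0.21 in the liver comparison and to -0.13 in liver over muscle, where CDK4 then stood at -0.043.

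For liver over muscle, 37 to 38 of the 43 genes were higher and 3 lower when each fetus was left out. With the 2 Control-AI fetuses alone, 35 were higher and 2 lower, and CDK6 (-0.46), CCNE2 (0.61), CDC45 (0.15) and CENPA (1.82) did not pass. Of the other cell cycle genes 4 were then lower, on fewer samples.

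With the fetus as a replicate block, liver over muscle again had 38 of the 43 genes higher and 3 lower, the interaction had 0 calls, and no call among the 43 changed. ART-Normal and Control-AI fetuses share the numbers 2 and 4 without being related by label, and their deviations correlated at 0.02 and -0.11 in liver and at 0.00 and -0.16 in muscle. A replicate block on that number gave 1 and 5 calls in liver and 41 and 49 in muscle, with 0 among the 43 genes.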
